A study of Mus musculus with 6 samples.

Results

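Lipoxygenase and prostaglandin synthesis genes were examined in cells derived in culture from mouse embryonic stem (ES) cells. A reporter for green fluorescent protein (GFP) sits at their Nkx2-1 locus, which encodes a homeodomain protein of the lung and thyroid. The list held 10 genes: Alox5, Alox5ap, Alox12, Alox12b, Alox15, Ptgs1, Ptgs2, Ptges, Ptgis and Ptgds. For each, the array row annotated with that symbol alone was taken. This gave values for 9 of the 10 among 19938 genes measured in all. Ptgs1 was not analysed here. The groups were 3 samples of GFP-positive cells (genotype label Nkx2-1GFP+, called Nkx2-1 high) and 3 samples of GFP-negative cells (Nkx2-1GFP-, called Nkx2-1 low). Both groups came from differentiation for 14 days on the W4/129S6 background, and both carry the knock-in reporter. The labels name 1 reporter allele and describe the samples as biological replicates. No undifferentiated cells or lung and thyroid tissue were compared here. The members were listed with earlier results of this same comparison known, so their calls are descriptive and are not independent evidence.

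Eicosanoids are short-lived lipid signals made from arachidonic acid, which phospholipases release from membranes. Lipoxygenases add oxygen to it and lead to hydroxy fatty acids and, through Alox5 and its partner Alox5ap, to leukotrienes. Cyclooxygenases, encoded by Ptgs1 and Ptgs2, turn it into a common precursor from which terminal synthases make the prostaglandins and prostacyclin. In the adult lung these mediators are known for their effects on airway and vessel tone and on inflammation.

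The upstream sequences of 5 genes are shown, picked by the size of the expression differences. Alox12, Ptgs2 and Ptges had the 3 largest differences among the members. Ephx1 and Hpgd had the largest rise and the largest fall among other eicosanoid genes. Each sequence is the 250 bases before the annotated start, from RefSeq on build GRCm38.p6, which is not known to be the build behind the array annotation. The windows were chr11:70255371-70255620, minus strand, for Alox12, chr1:150099781-150100030, plus strand, for Ptgs2, chr2:30903298-30903547, minus strand, for Ptges, chr1:181017570-181017819, minus strand, for Ephx1, and chr8:56294302-56294551, plus strand, for Hpgd. Capitals mark a match to 1 of the motifs described below.
Alox12: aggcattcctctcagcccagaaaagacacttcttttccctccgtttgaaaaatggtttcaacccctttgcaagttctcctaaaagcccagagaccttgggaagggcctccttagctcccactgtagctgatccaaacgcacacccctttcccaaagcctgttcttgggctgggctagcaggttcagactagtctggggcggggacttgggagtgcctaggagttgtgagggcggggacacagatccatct
Ptgs2: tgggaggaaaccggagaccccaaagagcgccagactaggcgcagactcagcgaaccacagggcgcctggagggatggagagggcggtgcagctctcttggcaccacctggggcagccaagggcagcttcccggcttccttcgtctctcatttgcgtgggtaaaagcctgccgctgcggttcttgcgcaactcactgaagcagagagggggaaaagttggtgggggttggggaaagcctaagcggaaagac
Ptges: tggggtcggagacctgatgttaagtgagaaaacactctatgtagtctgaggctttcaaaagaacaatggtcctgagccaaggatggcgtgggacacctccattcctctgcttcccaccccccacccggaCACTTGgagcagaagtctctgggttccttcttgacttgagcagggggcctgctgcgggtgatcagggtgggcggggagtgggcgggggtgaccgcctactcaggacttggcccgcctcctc
Ephx1: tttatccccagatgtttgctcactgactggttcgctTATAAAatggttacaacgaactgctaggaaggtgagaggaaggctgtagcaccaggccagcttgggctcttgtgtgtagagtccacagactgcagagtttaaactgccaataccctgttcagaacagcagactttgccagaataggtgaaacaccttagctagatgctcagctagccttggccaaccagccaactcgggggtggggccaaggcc
Hpgd: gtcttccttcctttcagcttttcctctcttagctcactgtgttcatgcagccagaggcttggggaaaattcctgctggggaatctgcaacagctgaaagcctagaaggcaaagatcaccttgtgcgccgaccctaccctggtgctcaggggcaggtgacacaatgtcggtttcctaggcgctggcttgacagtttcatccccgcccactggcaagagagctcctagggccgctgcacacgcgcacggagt

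Motifs were searched on both strands in windows of 300 bases, the 250 printed and the 50 after the start. The Ptges window held CACTTG, which is CAAGTG on the other strand, the core of sites bound by NK2 homeodomain proteins, the family of NKX2-1. That core was in 13.6% of all 32851 promoter windows of the RefSeq table. In the Ephx1 window the match was to the TATA box, TATAAA, also in 13.6% of windows. The Hpgd window held a TATA box after the start. Within the Ptgs2 window, the cAMP response element core TGACGT (7.51% of windows) and the E-box CACGTG (7.15%) both lay after the start and overlapped each other. The AP-1 motif TGANTCA, in 7.81% of windows, was in none of the 5, and the Alox12 window matched none of the motifs. These matches describe letters in a window, and binding was not tested. Promoters were found for 7 of the 10 members.

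Alox12 was the member that differed between the fractions. It encodes the platelet-type lipoxygenase, which makes hydroxy fatty acids from arachidonic acid. Its log2 expression was 6.07, 5.79 and 6.17 in the Nkx2-1 high samples, against 4.57, 3.89 and 3.99 in the Nkx2-1 low samples. The lowest Nkx2-1 high sample exceeded the highest Nkx2-1 low sample, and Nkx2-1 low replicate 1 was the highest of its group. The means were 6.01 ± 0.20 in Nkx2-1 high and 4.15 ± 0.37 in Nkx2-1 low (SD, n = 3 each). The difference, Nkx2-1 high minus Nkx2-1 low, was 1.86 ± 0.17 on the log2 scale (SE, limma adjusted p = 0.00026). A background level was set at a log2 value of 4.30, the 95th percentile of the values of olfactory and vomeronasal receptor rows. In Nkx2-1 low only 1 of the 3 arrays exceeded it, so the fitted difference rests partly on values below background. With the other arrays set to that level Alox12 was at least 3.07-fold higher in Nkx2-1 high. Of the 9 measured members 1 rose, where 2.90% of all genes rose, and 0 fell, where 3.09% of all genes fell. At an unadjusted p under 0.05, 2 members were lower, Ptgs2 and Ptges, as were 10.4% of all genes. Since the members were chosen with this contrast known, nothing is read from these shares.

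**Figure D1:**
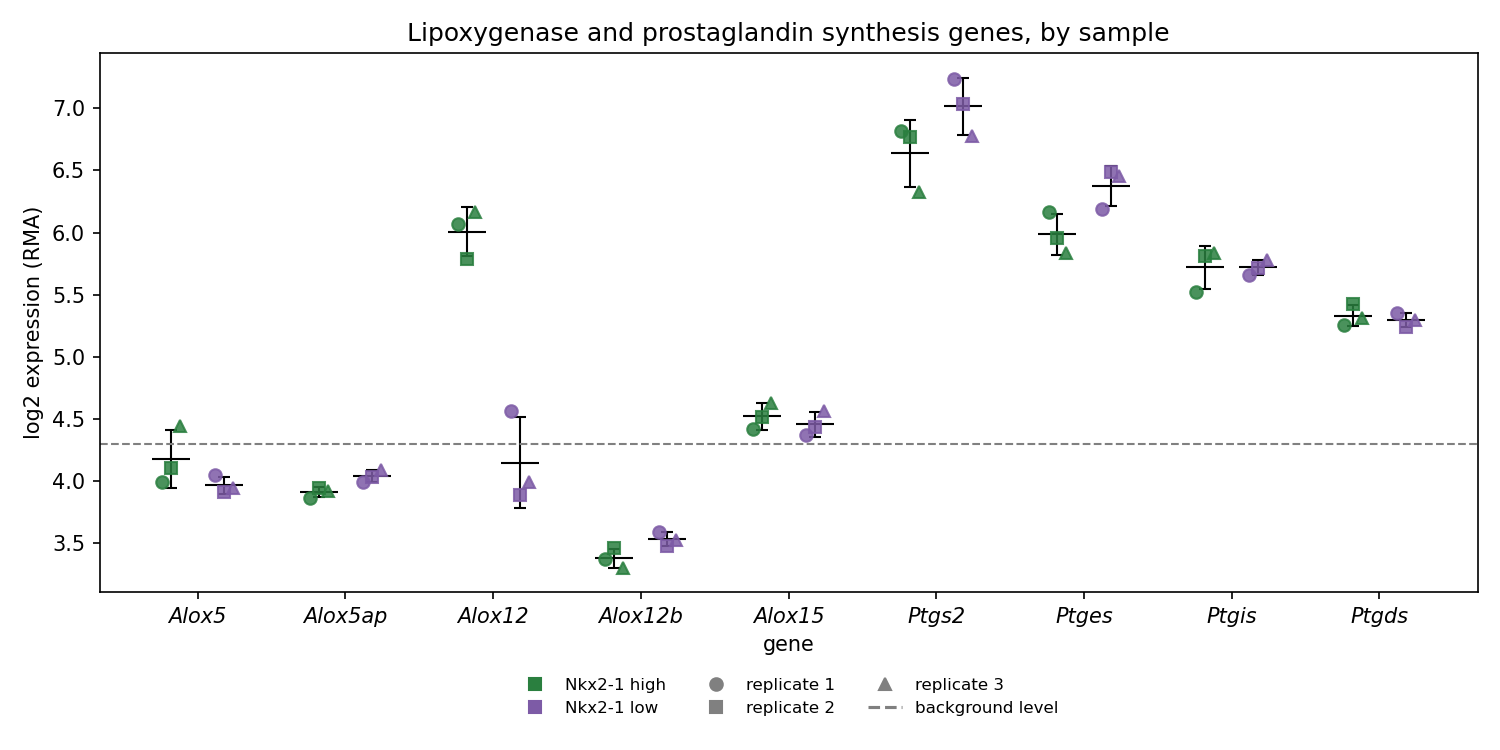
Log2 expression of the 9 measured members in each sample, with Nkx2-1 high to the left of Nkx2-1 low for each gene. Marker shapes give the replicate number, bars the mean and SD of 3 samples, and the dashed line the background level of 4.30. Alox12 is the member whose 2 groups stand clearly apart.

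The other lipoxygenase genes were at or near the background level in both fractions. Alox5 encodes the enzyme that starts leukotriene synthesis. It stood at 3.99 to 4.44 in Nkx2-1 high and 3.91 to 4.05 in Nkx2-1 low, with Nkx2-1 high replicate 3 alone above background. Alox5ap, which encodes the membrane protein that presents arachidonic acid to it, stood at 3.87 to 3.95 in Nkx2-1 high and 3.99 to 4.09 in Nkx2-1 low. Alox12b, a gene of the epidermal barrier, stood at 3.31 to 3.46 in Nkx2-1 high and 3.48 to 3.59 in Nkx2-1 low. Neither group mean of these 3 genes exceeded the background level, and no fold is given. Alox15, which encodes the leukocyte-type lipoxygenase, was slightly above background in all 6 samples. Its values were 4.42, 4.52 and 4.63 in Nkx2-1 high and 4.37, 4.44 and 4.56 in Nkx2-1 low. The groups overlapped, and the difference was 0.06 ± 0.09 (SE, limma adjusted p = 0.77), with a 95% interval from -0.14 to 0.26.

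Alox12 lies on chromosome 11 beside the paralogous genes Alox12e and Alox15. The nearest measured gene on one side, Rnasek, which encodes a small membrane protein named as a ribonuclease, differed by 0.25 ± 0.08 (SE, limma adjusted p = 0.129). On the other side Alox12e, which encodes an epidermal-type lipoxygenase, differed by 0.07 ± 0.09 (SE, limma adjusted p = 0.749) at levels not above background. Among the 6 measured genes on each side of Alox12, 0 of the 12 passed the limma test and 2, Rnasek and Cxcl16, had an unadjusted p under 0.05. The largest absolute difference was -0.28 ± 0.12, for the chemokine gene Cxcl16 (SE, limma adjusted p = 0.227), at levels not above background. RefSeq lists a long non-coding RNA gene, Gm40191, that overlaps Alox12. It has no row of its own, so signal from the 2 transcripts cannot be told apart where the probes lie in both.

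**Figure D2:**
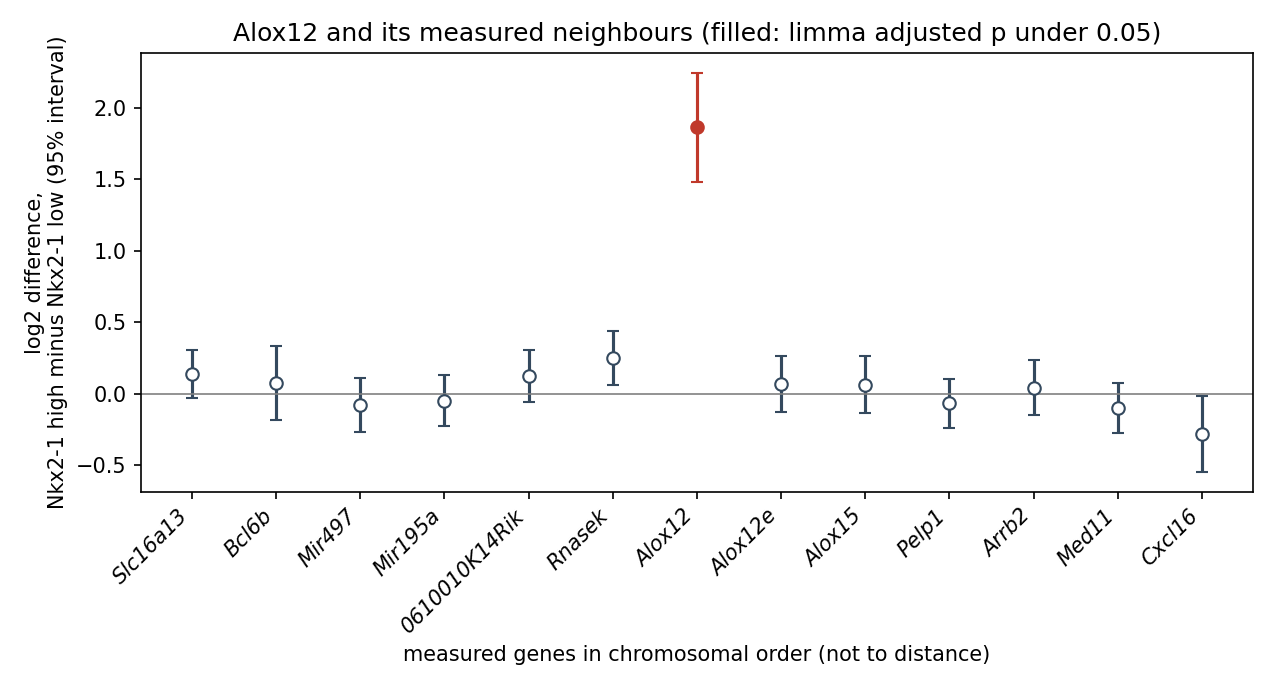
Log2 difference, Nkx2-1 high minus Nkx2-1 low, with its 95% interval for Alox12 and the 6 measured genes on each side, in chromosomal order. Filled points passed the limma test. Alox12 stands at 1.86 and its neighbours lie between -0.28 and 0.25.

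Over the 6 samples, the genes whose values followed Alox12 most closely were Atp2b1 (Pearson r = 0.996), Smpd2 (r = 0.996) and Pacsin2 (r = 0.994), out of 13403 genes above background in at least 1 group. Atp2b1 encodes a plasma membrane calcium pump, Smpd2 a sphingomyelin-cleaving enzyme and Pacsin2 a protein that bends membranes. Their differences were 0.28, 0.34 and 0.28 on the log2 scale, far smaller than that of Alox12, and of the 3 only Smpd2 passed the limma test (adjusted p = 0.0309). The correlations describe 6 points that fall into 2 groups and carry no test.

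Alox12 is known from platelets and from stratified epithelium, so markers of both were read beside it. Of 8 platelet and megakaryocyte markers 5 were measured, and 0 rose and 0 fell in the limma fit, with 0 at an unadjusted p under 0.05. Their summed linear signal ran from 94.1 to 98.4 in Nkx2-1 high and from 96.7 to 103.7 in Nkx2-1 low, and 3 of the 5 were above background, though not the platelet chemokine genes Pf4 and Ppbp. Of 8 epidermal markers 7 were measured, and again 0 rose and 0 fell, with 0 at an unadjusted p under 0.05. Of the 7, 5 were above background in at least 1 group, among them Krt10, Krt14, Trp63 and Lor, while Krt5 and Ivl were not. The summed signal of the 7 ran from 198.1 to 205.6 in Nkx2-1 high and from 177.2 to 193.6 in Nkx2-1 low. Lor carried most of that gap: without it the sum ran from 129.7 to 138.9 in Nkx2-1 high and from 127.8 to 132.3 in Nkx2-1 low, and the groups overlapped. The part of epidermal markers in the Alox12 result was not tested. In bulk samples of this kind, fewer cells of a type and less RNA per cell cannot be told apart.

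Ptgs2 encodes the inducible cyclooxygenase. Its log2 expression was 6.81, 6.77 and 6.33 in Nkx2-1 high, against 7.24, 7.03 and 6.78 in Nkx2-1 low. Replicate 3 was the lowest sample of each group, and the groups overlapped by the margin between 6.81 and 6.78. The difference was -0.38 ± 0.15 (SE, limma adjusted p = 0.202), with a 95% interval from -0.71 to -0.04, and did not pass the test over all genes. It was -0.22 without Nkx2-1 high replicate 3, the most that leaving out 1 sample reduced it, and -0.50 without Nkx2-1 low replicate 3.

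Ptgs2 is an immediate early gene in many cell types, switched on within a short time of a stimulus. Of 10 other immediate early genes, 8 rose and 0 fell. They were listed with such rises already known, so the count is not independent evidence of a direction. Fos, which encodes an AP-1 subunit, averaged 7.33 ± 0.24 in Nkx2-1 high and 5.77 ± 0.16 in Nkx2-1 low (SD, n = 3 each), a difference of 1.56 ± 0.13 (SE, limma adjusted p = 0.000141). The 10 differences ran from 0.23 to 1.86, all of them positive, while that of Ptgs2 was -0.38. No test was made of the difference between Ptgs2 and these genes.

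**Figure D3:**
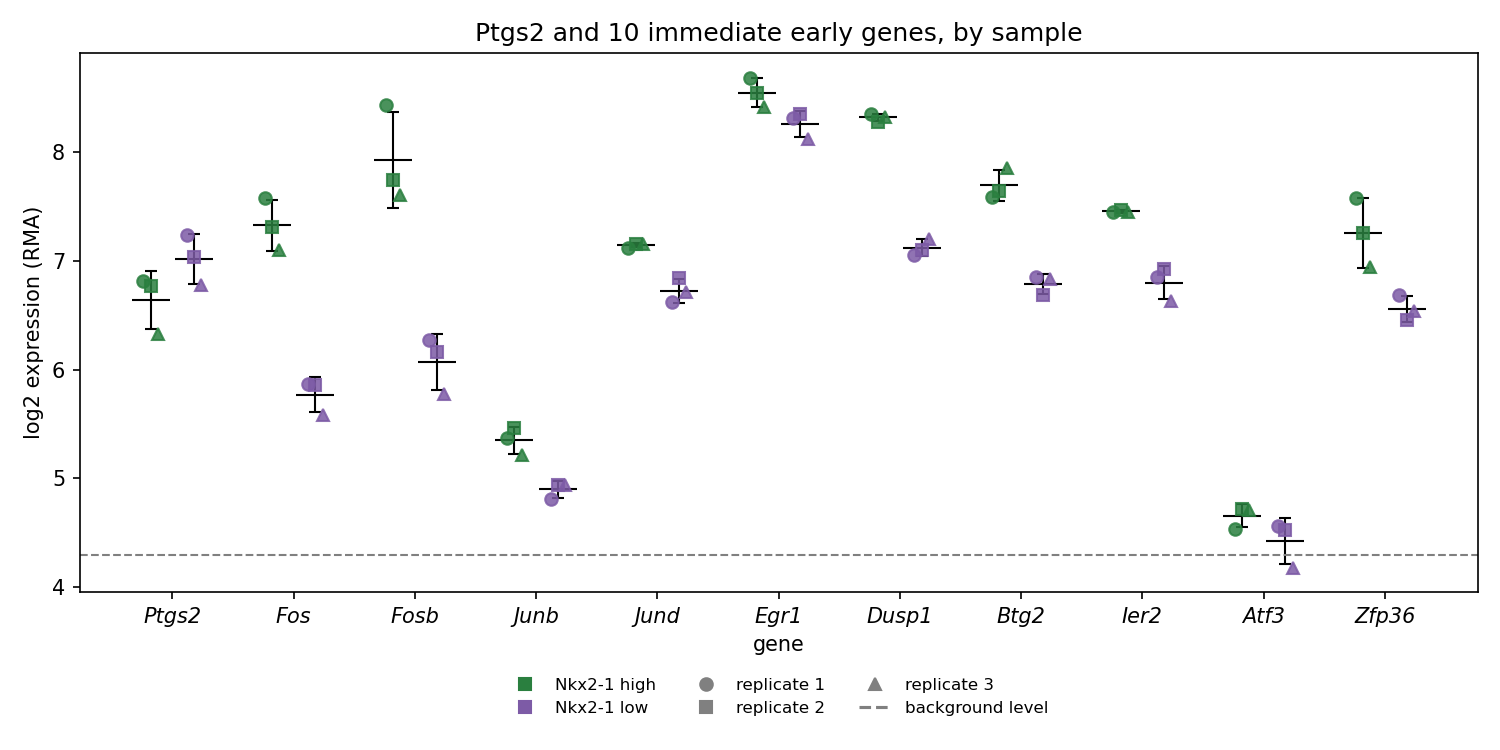
Log2 expression of Ptgs2 and 10 immediate early genes in each sample, with Nkx2-1 high to the left of Nkx2-1 low. Marker shapes give the replicate number, bars the mean and SD of 3 samples, and the dashed line the background level of 4.30. The Ptgs2 mean is 6.64 in Nkx2-1 high and 7.02 in Nkx2-1 low, while the Fos mean is 7.33 in Nkx2-1 high and 5.77 in Nkx2-1 low.

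Ptges encodes the inducible synthase of prostaglandin E. The Nkx2-1 high samples stood at 6.16, 5.96 and 5.83, against 6.19, 6.49 and 6.45 in the Nkx2-1 low samples. The groups did not overlap, but only 0.03 separated the highest Nkx2-1 high sample from the lowest Nkx2-1 low sample. Groups failed to overlap for 4 of the 9 measured members and for 24.7% of all genes. The difference of Ptges was -0.39 ± 0.11 (SE, limma adjusted p = 0.0791), with a 95% interval from -0.64 to -0.14. It did not pass here, though it narrowly passed with 2 of the alternative settings (adjusted p = 0.0491 with only genes above background and 0.0464 with a mean-variance trend and robust variances). Ptges passed in none of the 6 fits that left out 1 sample (limma adjusted p from 0.0528 to 0.231). Without replicate 3 of both groups the limma adjusted p was 0.335.

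For the other 2 terminal synthases among the members, Ptgis and Ptgds, the fractions overlapped. Ptgis, which encodes prostacyclin synthase, stood at 5.52, 5.81 and 5.84 in Nkx2-1 high and 5.66, 5.72 and 5.78 in Nkx2-1 low. The Nkx2-1 high samples enclosed the Nkx2-1 low ones, and the 95% interval of the difference ran from -0.22 to 0.22. Ptgds, which encodes the lipocalin-type prostaglandin D synthase of meninges and choroid plexus, stood at 5.26, 5.43 and 5.31 in Nkx2-1 high and 5.35, 5.24 and 5.30 in Nkx2-1 low. Its groups overlapped too, with an interval from -0.14 to 0.21. Intervals of this width leave room for differences of about 0.2 in either direction.

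The wider pathway was followed through a list of 53 other genes of eicosanoid release, synthesis, breakdown and reception, chosen by role, of which 49 were measured. Of these 49, 28 were above background in at least 1 group. In the limma fit 2 rose (Ptger3 and Ephx1) and 4 fell (Pla2g4a, Mgst2, Hpgd and Slco2a1), that is 4.08% and 8.16% of the list, where 2.90% of all genes rose and 3.09% fell. Earlier results of these data were known when the list was made, so nothing is read from these shares. The median difference was 0.04 for the list and -0.01 for all genes. Leaving out the second Nkx2-1 high sample alone reduced the calls to 2 of the 49, and so did leaving out the second Nkx2-1 low sample alone. Hpgd and Ephx1 kept their calls in each of the 6 fits that left out 1 sample.

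**Figure D4:**
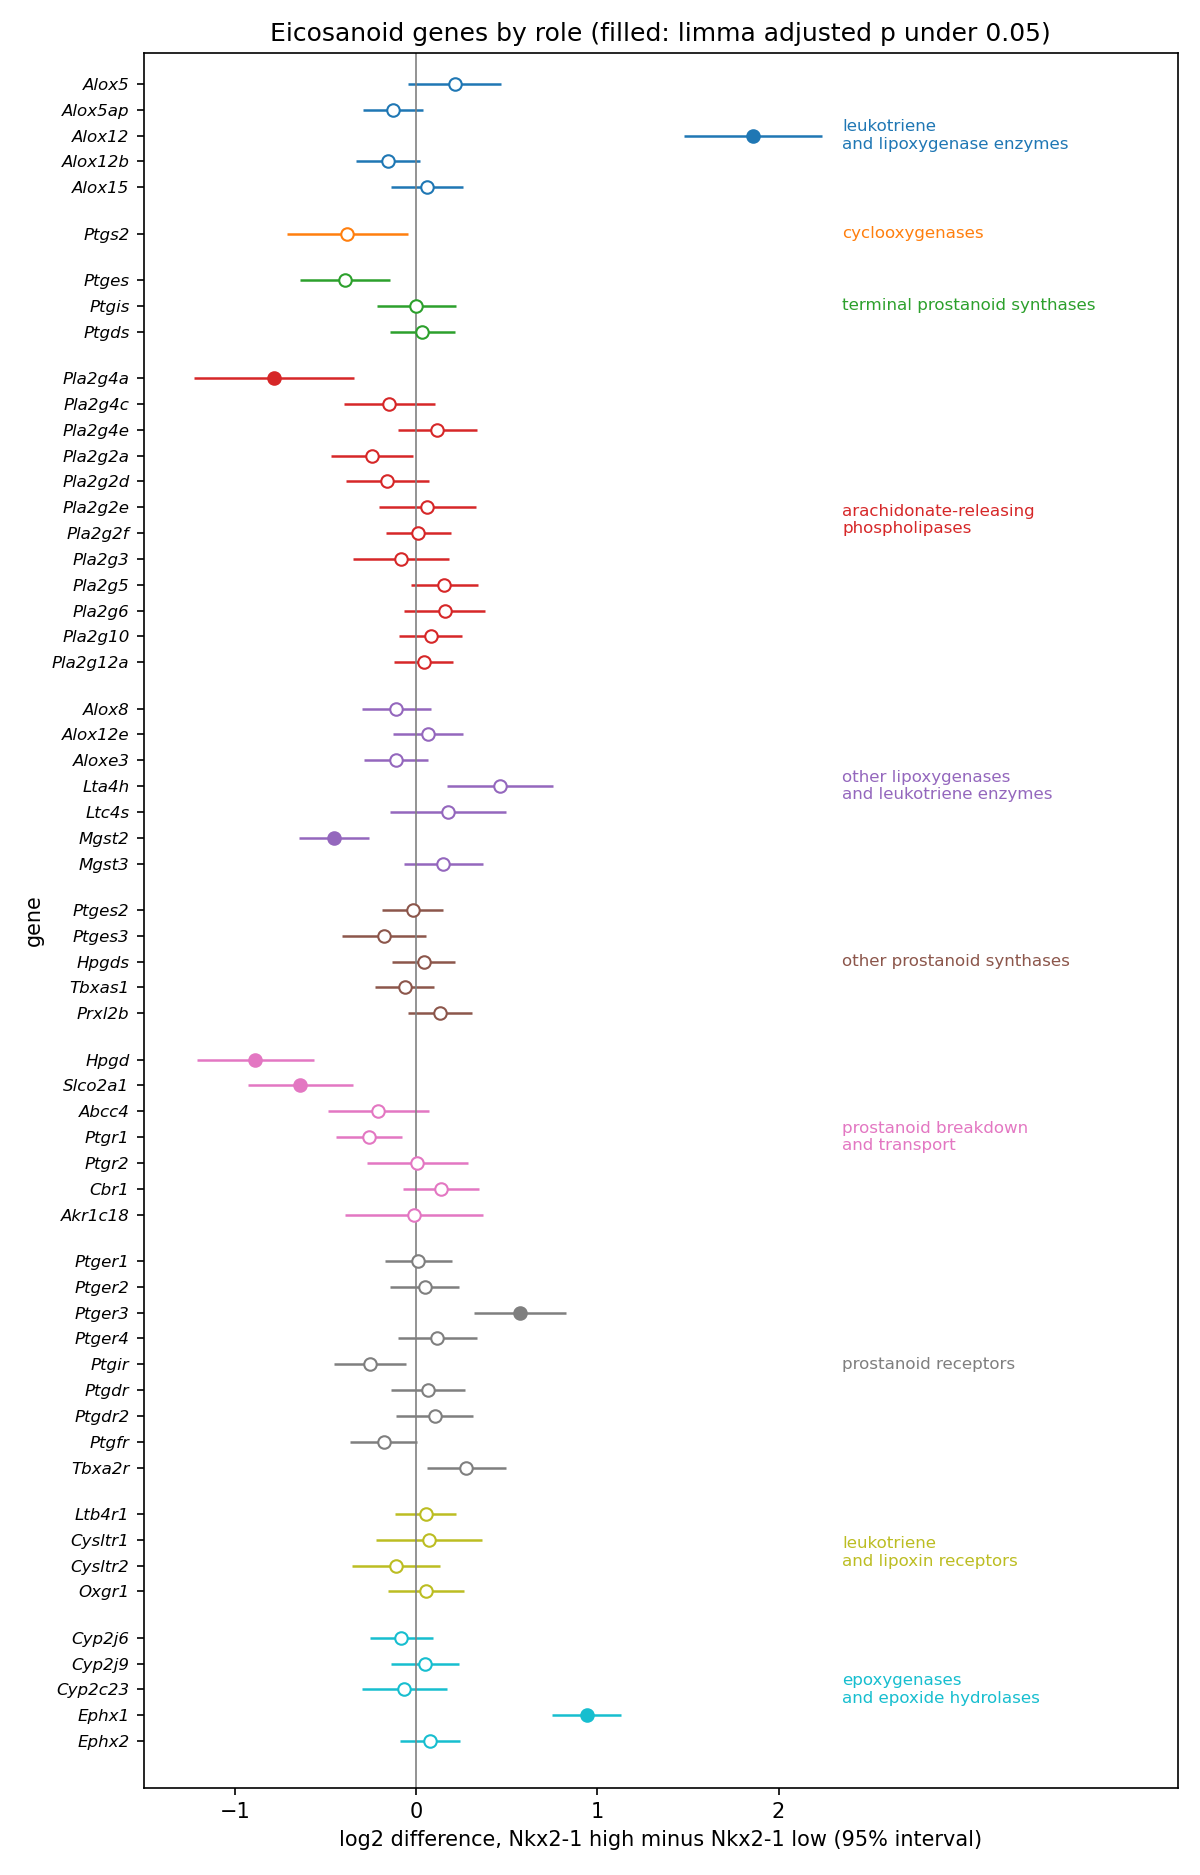
Log2 difference, Nkx2-1 high minus Nkx2-1 low, with its 95% interval for the 9 measured members and 49 other eicosanoid genes, grouped and coloured by role. Filled points passed the limma test at an adjusted p under 0.05. Alox12 at 1.86 and Ephx1 at 0.94 lie farthest to the right, and Hpgd at -0.89 lies farthest to the left.

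Of 12 measured phospholipase genes, 0 rose and 1 fell. Pla2g4a encodes the cytosolic phospholipase that frees arachidonic acid for both branches. It stood at 6.04, 5.84 and 5.28 in Nkx2-1 high, against 6.76, 6.57 and 6.18 in Nkx2-1 low. The groups did not overlap, and replicate 3 was the lowest sample in each. The difference was -0.79 ± 0.20, a level 1.72-fold lower in Nkx2-1 high (SE, limma adjusted p = 0.0476). The call was lost in 4 of the 6 fits that left out 1 sample, namely those without Nkx2-1 high replicates 2 or 3 or Nkx2-1 low replicates 1 or 2 (adjusted p up to 0.153), and with median-centred arrays (0.0527) or cyclic loess (0.0519). Pla2g6, a calcium-independent phospholipase gene, differed by 0.16 ± 0.10 and Pla2g12a, a secreted phospholipase gene, by 0.04 ± 0.07, neither past the test.

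Breakdown and transport of prostaglandins held 2 of the 4 falls. Hpgd encodes the dehydrogenase that inactivates prostaglandins. Its values were 5.05, 4.94 and 4.84 in Nkx2-1 high, against 6.13, 5.87 and 5.49 in Nkx2-1 low. Every Nkx2-1 high sample lay below every Nkx2-1 low sample. The difference was -0.89 ± 0.14, a level 1.85-fold lower in Nkx2-1 high (SE, limma adjusted p = 0.0065). Slco2a1 encodes the transporter that brings prostaglandins into the cell for this breakdown. It stood at 5.46, 5.23 and 5.07 in Nkx2-1 high, against 6.09, 5.93 and 5.67 in Nkx2-1 low, again with no overlap. Its difference was -0.64 ± 0.13, 1.56-fold lower (SE, limma adjusted p = 0.0185), and the call was lost without Nkx2-1 high replicates 2 or 3 or Nkx2-1 low replicates 1 or 2, each left out alone (adjusted p up to 0.0755). In Pla2g4a, Hpgd and Slco2a1 alike, replicate 1 was the highest and replicate 3 the lowest sample of each group. Among the 5 other measured genes of this role 0 were called by limma and 1, the reductase gene Ptgr1, had an unadjusted p under 0.05 (-0.26 ± 0.08). The exporter gene Abcc4 differed by -0.21 ± 0.12 and the carbonyl reductase gene Cbr1 by 0.14 ± 0.09.

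Of 9 prostanoid receptor genes 1 rose and 0 fell. Ptger3, a receptor gene for prostaglandin E, stood at 6.08, 5.92 and 5.63 in Nkx2-1 high, against 5.37, 5.25 and 5.29 in Nkx2-1 low. The groups did not overlap, and the difference was 0.57 ± 0.11, 1.49-fold (SE, limma adjusted p = 0.0171). The call was lost without Nkx2-1 high replicates 1 or 2 or Nkx2-1 low replicate 2, each left out alone (adjusted p up to 0.0746). The receptor gene Ptger1, for the same ligand, differed by 0.01 ± 0.08 and the thromboxane receptor gene Tbxa2r by 0.28 ± 0.10 (limma adjusted p = 0.149). Of the listed leukotriene and lipoxin receptor genes 4 were measured, Fpr2 not among them, and 3 of the 4 were not above background. By limma 0 were called, and 0 had an unadjusted p under 0.05. Ltb4r1, a leukotriene receptor gene, was not above background, and Cysltr1, another, averaged 4.42 in Nkx2-1 high and 4.35 in Nkx2-1 low.

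The remaining calls lay in the leukotriene and epoxide branches. Ephx1 encodes microsomal epoxide hydrolase, known for handling many epoxides besides those of fatty acids. It stood at 7.16, 6.95 and 7.14 in Nkx2-1 high, against 6.18, 6.08 and 6.17 in Nkx2-1 low. The groups were far apart, and the difference was 0.94 ± 0.08, 1.92-fold (SE, limma adjusted p = 0.00024). Ephx2, the soluble hydrolase gene, was not above background, and Cyp2j6, a cytochrome P450 gene of the epoxygenase family, differed by -0.08 ± 0.08. Its relative Cyp2j9 was not above background. Mgst2, whose enzyme can make leukotriene C, stood at 5.13, 5.05 and 4.91 in Nkx2-1 high, against 5.44, 5.56 and 5.45 in Nkx2-1 low. The groups did not overlap, and the difference was -0.45 ± 0.09 (SE, limma adjusted p = 0.0143), lost without Nkx2-1 high replicate 2 or Nkx2-1 low replicate 2 (adjusted p up to 0.0629), and without replicate 3 of both groups (0.0631). Mgst3, of the same enzyme family, differed by 0.15 ± 0.10 and did not pass. Lta4h, which encodes leukotriene A hydrolase, differed by 0.46 ± 0.13 without overlap between the groups and did not pass (limma adjusted p = 0.0733). Of 5 other prostanoid synthase genes 0 were called by limma and 0 had an unadjusted p under 0.05. Ptges3, which encodes a chaperone partner also named as a synthase, differed by -0.18 ± 0.10 with overlap between the groups. Prxl2b, a prostaglandin F synthase gene, differed by 0.13 ± 0.08 without overlap, and neither passed.

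**Figure D5:**
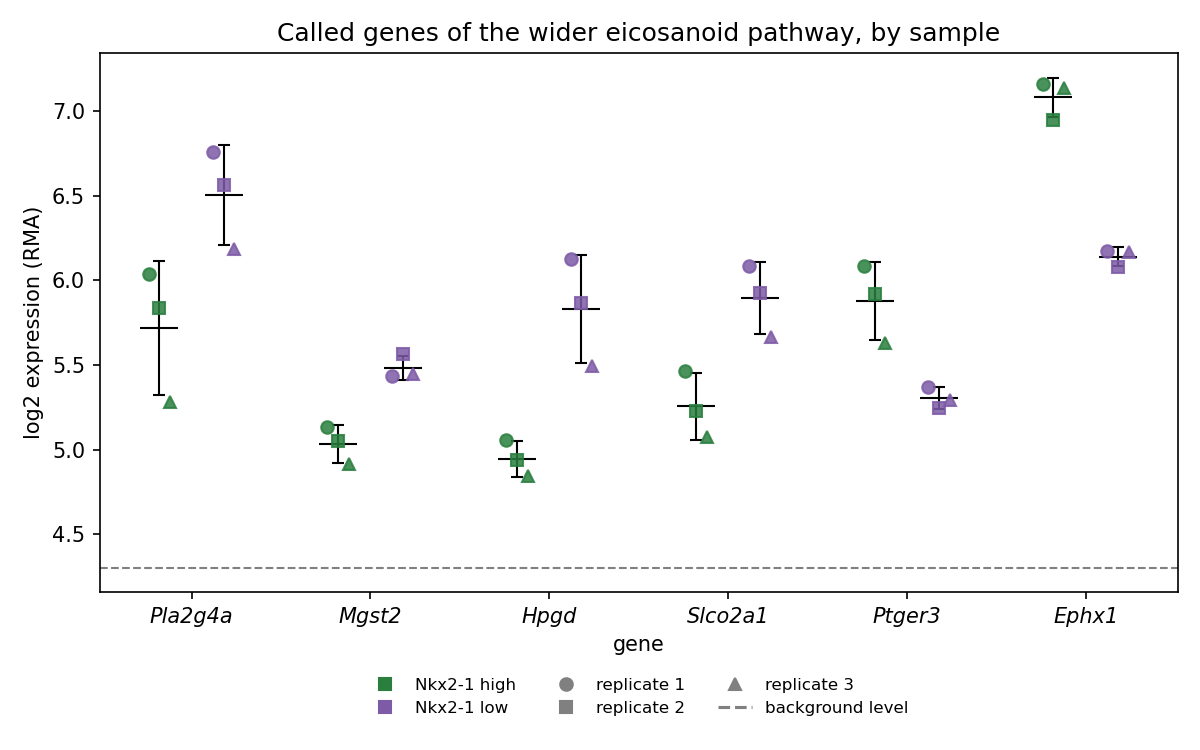
Log2 expression of the 6 called genes of the wider pathway in each sample, with Nkx2-1 high to the left of Nkx2-1 low. Marker shapes give the replicate number, bars the mean and SD of 3 samples, and the dashed line the background level of 4.30. Ptger3 and Ephx1 are higher in Nkx2-1 high and the other 4 genes lower, with no overlap between groups in any of the 6.

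Markers of other cell types that use this pathway were read in the same way. Of 10 myeloid markers 2 were above background, 0 rose and 0 fell by limma, with 1 at an unadjusted p under 0.05, and the leukocyte gene Ptprc was not above background. Their summed linear signal ran from 180.1 to 203.1 in Nkx2-1 high and from 172.4 to 185.5 in Nkx2-1 low. Of 6 mast cell markers 1 was above background, the receptor gene Kit, which other cells also express, and Cpa3 was not. The 6 summed to between 76.5 and 97.7 in Nkx2-1 high and between 90.4 and 100.8 in Nkx2-1 low. Of 7 endothelial markers 6 were above background and 1 rose, the receptor gene Tek (0.90 ± 0.10, above background only in Nkx2-1 high), while Cdh5 was not above background. At an unadjusted p under 0.05, 3 were higher (Tek, Pecam1 and Emcn) and 1 lower (Tie1, -0.19 ± 0.08), and the median difference was -0.08. Their sum ran from 215.1 to 290.3 in Nkx2-1 high and from 192.2 to 214.9 in Nkx2-1 low. Without Emcn it ran from 149.4 to 154.3 in Nkx2-1 high and from 137.7 to 141.5 in Nkx2-1 low. Of 6 meningeal and choroid plexus markers 3 were above background, Folr1, Foxc1 and Aldh1a2, while Ttr was not. Of the 6, 1 fell, Aldh1a2 (-1.07 ± 0.25). Foxc1 differed the other way (0.32 ± 0.09, limma adjusted p = 0.0888). That sum ran from 228.1 to 244.1 in Nkx2-1 high and from 238.6 to 327.3 in Nkx2-1 low. Without Aldh1a2 the order turned, to between 180.5 and 187.6 in Nkx2-1 high and between 157.2 and 169.1 in Nkx2-1 low. Their part in the eicosanoid differences was not tested.

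The sorted gene Nkx2-1 averaged 7.72 ± 0.08 in Nkx2-1 high and 5.33 ± 0.09 in Nkx2-1 low (SD, n = 3 each). It checks the labels and is no finding, since the cells were sorted on its reporter. Of 6 endoderm markers 5 were above background, Sox17 was not, and Epcam fell (-0.81 ± 0.11). Cdh1 (-0.36 ± 0.12), Cldn6 (-0.40 ± 0.15) and Foxa1 (-0.41 ± 0.24) did not pass, and Foxa2 averaged 5.74 in Nkx2-1 high and 5.78 in Nkx2-1 low. At an unadjusted p under 0.05, 3 of the 6 were lower and 0 higher, with a median difference of -0.38. Their summed linear signal ran from 165.7 to 207.0 in Nkx2-1 high and from 206.8 to 260.6 in Nkx2-1 low, and its part in the eicosanoid differences was not tested. Any pair of samples within a group differed by a median of 0.0968 to 0.133 over genes, as absolute log2 values.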

How the data were processed

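Total RNA of 6 sorted samples, 3 per group, was amplified by WT-Ovation Pico and biotin-labelled, per the labels' protocols. Amplification can change relative signals. The authors deposited 1 value per transcript cluster and sample, taken here as log2. RMA, which subtracts background, equalises arrays and summarises probes, is named in the submitters' processing notes, and log2 was inferred from that and from medians per array of 4.98 to 5.06. For the RMA version and the genome build, the sources used here give nothing. Scan dates were not used here. The number of arrays limits the precision.

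Of 29011 rows, 21789 had 1 symbol in the platform annotation, 1621 had several and 5601 none. The highest-mean row per gene gave 19938 genes. Rows of 1210 chemosensory receptors set the background level, as the 95th percentile of their values on all arrays. A gene counts as above background in a group by its mean. "At least" folds set each array below that level to it. The comparison used limma 3.58.1 under R 4.3.3, with lmFit, eBayes and a single group term. P-values were adjusted over all genes by Benjamini-Hochberg, with a threshold of 0.05. The fit was also run on simulated data with independent normal noise, as a check of the code only. "Rose" and "fell" mean past that threshold, and each difference subtracts Nkx2-1 low from Nkx2-1 high and carries the SE of limma. Summed marker signal is the sum of 2 to the power of the log2 values.

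Members and lists were chosen with earlier results of these data known. Named are all members, every called gene of the pathway list, the 2 uncalled genes of each role with the highest mean, Nkx2-1, the nearest measured neighbours of Alox12, the 3 genes most like it, and Fos. Cxcl16, Ephx2, Ptgr1 and single markers, and the marker left out of each repeated sum, were chosen after their values were seen. Of the pathway list, Pla2g4b lay on a row shared by several genes and Akr1b3, Ltb4r2 and Fpr2 were not used here. Fam213b and Cyp2c44 were found under the RefSeq symbols Prxl2b and Cyp2c23. Of the markers, 1 lay on a shared row and a few others were not used here. Other settings tried were cyclic loess, median-centred arrays, a threshold of 0.01, averaging all rows of a gene, a replicate block, robust eBayes with a mean-variance trend, testing only genes above background, and leaving out each sample. Leaving out replicate 3 of both groups was added after the data were seen. Plots were made in Python 3.11.15 with matplotlib 3.10.9.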

Additional observations from a re-analysis of the deposited data

How the results depend on the processing

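Alox12 rose in every fit run, by 1.70 to 2.07 on the log2 scale, differences that rest partly on Nkx2-1 low values below background. The count of called members was 1 in the main setting and in each fit without 1 sample (range 1 to 1). It was 2 with only genes above background and 2 with a mean-variance trend and robust eBayes, where Ptges was added. It was also 2 with the replicate block, where Ptgs2 was added (adjusted p = 0.0265). The wider pathway had 7 calls, 3 rises and 4 falls, in each setting where 2 members were called. With cyclic loess it had 6 calls, of which 3 were rises. Deviations of same-numbered samples correlated at 0.181, -0.00405 and 0.277. Nkx2-1 high replicates 1 and 3 matched their own number best, while replicate 2 matched Nkx2-1 low replicate 1. With so few samples, these values do not settle whether the replicate numbers pair the samples. Of the pathway genes 6 were called, 2 to 6 in the fits without 1 sample, 6 without replicate 3 of both groups (where Mgst2 was lost, adjusted p = 0.0631), and 2 at a threshold of 0.01. Over all genes 1196 were called, against 507 at that threshold and 624 to 1086 without 1 sample. More were called with cyclic loess (1289), the replicate block (1470) and a mean-variance trend with robust eBayes (1537). Testing only the 13404 genes above background gave 1510. Ptgis and Ptgds, near 0 throughout, changed sign. Ptgis ran from -0.0545 to 0.102 and Ptgds from -0.0121 to 0.0712 without 1 sample, and Ptgis was -0.0233 without replicate 3 of both groups. With only genes above background Alox5, Alox5ap and Alox12b give no value. Some of these fits held fewer genes or samples, and the causes of the changes were not tested. Signal near background limits what can be said of the lipoxygenase genes, Alox12 in Nkx2-1 low included.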

Other observations

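Pla2g4a and Ptgs2, which encode the enzymes that release arachidonic acid and commit it to prostaglandins, are neighbours on chromosome 1. The RefSeq table lists 2 genes between them, of which 0 are protein-coding and 0 were measured here. Both means were lower in Nkx2-1 high, by -0.79 ± 0.20 for Pla2g4a and -0.38 ± 0.15 for Ptgs2 (SE), of which the first passed the limma test (adjusted p = 0.0476) and the second did not (adjusted p = 0.202). In both genes replicate 1 was the highest and replicate 3 the lowest sample of each group. The pair was singled out after its values were seen.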
